A study of Homo sapiens with 18 samples.

Results

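The genes described here are 42 genes that interferons are known to induce or that present antigen on MHC class I, chosen as a named list and matched by symbol to the Ensembl gene IDs of the count files. All 42 were found among the 62649 gene IDs. They comprise an RNA sensor, 5 transcription factors, the IFIT, OAS, MX, GBP and IFITM families, the ISG15 system, further effector and IFI genes, 2 chemokines and 5 antigen presentation genes.

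RNA-seq was done on 2 human lung epithelial lines that the labels call wild type: A549, labelled alveolar and derived from a lung adenocarcinoma, and BEAS-2B, labelled bronchial and immortalised with a viral oncogene. Cells were seeded on inserts 24 h ahead, 400000 for A549 and 500000 for BEAS-2B. Their upper face then met clean air, complete wood smoke or wood smoke that had been filtered, for 4 h at 100 mL/min and 85% humidity, with 3 libraries for each of the 6 groups. A549 was kept in RPMI medium with serum and BEAS-2B in KGM medium, and all groups had RPMI medium below the insert during exposure. The title of the study asks what the gaseous fraction of the smoke does. The comparisons below set each smoke against clean air, one smoke against the other and one line against the other. Nothing in the labels says whether the 3 libraries of a group came from separate cultures, so each p-value rests on a spread between libraries that may be technical.

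Interferons bind receptors at the cell surface that act through JAK kinases and assemble a factor holding STAT2 and IRF9 that binds the interferon-stimulated response element (ISRE) in promoters. The genes it switches on sense viral RNA, block translation or entry of viruses, attach the ubiquitin-like protein ISG15 to other proteins, and amplify the response through IRF7. A second arm, driven by interferon gamma and IRF1, raises MHC class I chains and the peptide transporter so that peptides can be shown to T cells, and airway epithelium is known to mount both arms when infected.

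Because the list is defined by interferon, promoter windows from RefSeq (GRCh38.p14, 250 bases before to 50 after a start; the first listed window of each gene) were searched for 2 motifs on both strands. The core of the ISRE is GAAA, any 2 bases (NN) and GAAA again, which reads TTTC, NN and TTTC on the other strand. The core of the gamma-activated site is TTC, any 3 bases (NNN) and GAA, whose reverse complement has the same letters. The windows of 32 of the 42 genes were matched by symbol. The ISRE letters were found in 22 of these 32 windows (68.8%) and in 3.57% of all 35116 windows, and the gamma-activated letters in 9 (28.1%) and in 7.66%. The stretch from 160 to 91 bases before the RefSeq start is shown for 3 members that were higher after smoke (ISG15, B2M, TAP1) and 3 that were lower (IFIT3, IFIT1, SAMD9), because both kinds carry the motif. Each is written 5′ to 3′ on the gene's strand, with every ISRE match in capitals and overlapping matches run together. On the plus strand lie ISG15 at chr1:1013337-1013406, B2M at chr15:44711357-44711426, IFIT3 at chr10:89327837-89327906 and IFIT1 at chr10:89392463-89392532. On the minus strand lie TAP1 at chr6:32853795-32853864 and SAMD9 at chr7:93118070-93118139.
ISG15: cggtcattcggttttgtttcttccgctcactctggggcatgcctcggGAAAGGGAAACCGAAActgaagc
B2M: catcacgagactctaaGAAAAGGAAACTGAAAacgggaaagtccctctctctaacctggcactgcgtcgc
TAP1: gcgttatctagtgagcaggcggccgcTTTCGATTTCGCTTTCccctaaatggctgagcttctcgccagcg
IFIT3: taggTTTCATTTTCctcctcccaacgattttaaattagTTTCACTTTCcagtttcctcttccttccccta
IFIT1: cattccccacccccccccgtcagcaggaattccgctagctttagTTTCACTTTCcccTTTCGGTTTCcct
SAMD9: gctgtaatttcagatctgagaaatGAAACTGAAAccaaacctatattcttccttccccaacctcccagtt
ISG15, B2M and TAP1 each hold 2 overlapping matches, IFIT3 and IFIT1 hold 2 separate ones, and SAMD9 holds 1. No ISRE match was in the windows of HLA-B, HLA-C, STAT2, OAS1, IRF9, HERC6, IRF1, IFI35, XAF1 and CXCL11, which says only that these letters are not in those windows. A match is a description of letters and not a shown binding site.

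The libraries held 14438397 to 21432089 gene counts in A549 and 28532235 to 55032499 in BEAS-2B. Values below are in CPM (counts-per-million) on library sizes scaled by TMM, a method that sets the bulk of genes level between libraries; the factors ran from 0.916 to 1.09 in A549 and from 0.718 to 1.52 in BEAS-2B. BEAS-2B complete smoke library 3 had 31.7% of its reads mapped to several places, against 10.2% to 19.2% in the other smoke libraries of the line, and clean air library 1 had a TMM factor of 1.14 where the other two had 1.48 and 1.52; counts that lead a result are also given without both. Reads in no annotated gene made up 6.49% to 7.56% in A549 clean air and 2.56% to 6.41% after smoke, 3.51% to 6.41% in BEAS-2B clean air and 1.09% to 12.6% after smoke. The epithelial markers KRT8, KRT18, EPCAM and CDH1 summed to 6024 to 7685 CPM in A549 clean air, 7277 to 12515 after complete and 8152 to 15118 after filtered smoke. In BEAS-2B the sums were 1787 to 4881, 3994 to 9464 and 5162 to 9135 CPM. By edgeR 1 of the 4 was called higher in A549 complete smoke (EPCAM) and 3 in filtered smoke, and after each smoke in BEAS-2B KRT18 was called higher and CDH1 lower. The 7 leukocyte markers summed to at most 0.340 CPM with CD3E and CLEC4C at 0 counts, and the alveolar type II markers SFTPB, SFTPC, SFTPA1 and SFTPA2 summed to at most 0.306 CPM, with SFTPA1 and SFTPA2 at 0 counts, so the defining surfactant transcripts of alveolar type II cells were at or near the counting floor in A549. The fibroblast markers COL1A1, COL1A2 and DCN summed to 27.6 to 48.6 CPM in A549 clean air and 8.85 to 24.4 CPM after smoke, and to 446 to 752 CPM and 190.0 to 415 CPM in BEAS-2B. The part of these shares and markers in the results was not tested. In bulk RNA, fewer cells of a type and less RNA per cell cannot be told apart.

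In clean air the 2 lines held these genes at very different levels, as the plot of clean-air levels shows. For this comparison alone, all 18 libraries were scaled together. Of the 39 members in the joint fit, 26 were higher in all 3 BEAS-2B libraries than in all 3 A549 libraries, where 32.8% of all 17703 genes were, and 4 were lower (OAS1, OAS3, HERC6 and DDX60), where 34.7% of all genes were. OAS2, MX2, BST2, XAF1 and IFI27 are among the 26 and entered this fit only through their counts in BEAS-2B. Of the 34 members with enough counts in both lines, 21 were higher and 4 lower in BEAS-2B, where 32.9% and 32.8% of the 13927 genes of that kind were. HLA-B, a heavy chain of MHC class I, had means of 1.51 CPM in A549 and 199 in BEAS-2B, a ratio of 132. HLA-C stood at 3.79 and 165 CPM. BST2 (tetherin, which holds budding virions on the cell) had 9, 3 and 3 counts in the A549 libraries and a mean of 39.8 CPM in BEAS-2B. IFI27, also under the count filter in A549, had a mean of 33.8 CPM in BEAS-2B. OAS1, which makes the 2-5A messenger that activates RNase L, went the other way, with 17.4 CPM in A549 and 1.81 in BEAS-2B, a 9.62-fold ratio. Each line had its own maintenance medium and its own number of cells seeded, so the parts of line, medium and seeding cannot be told apart. The sample titles also follow a separate pattern in each line, and the BEAS-2B libraries held more gene counts. The part of these was not tested, nor was whether HLA reads of both lines map equally well.

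**Figure D1:**
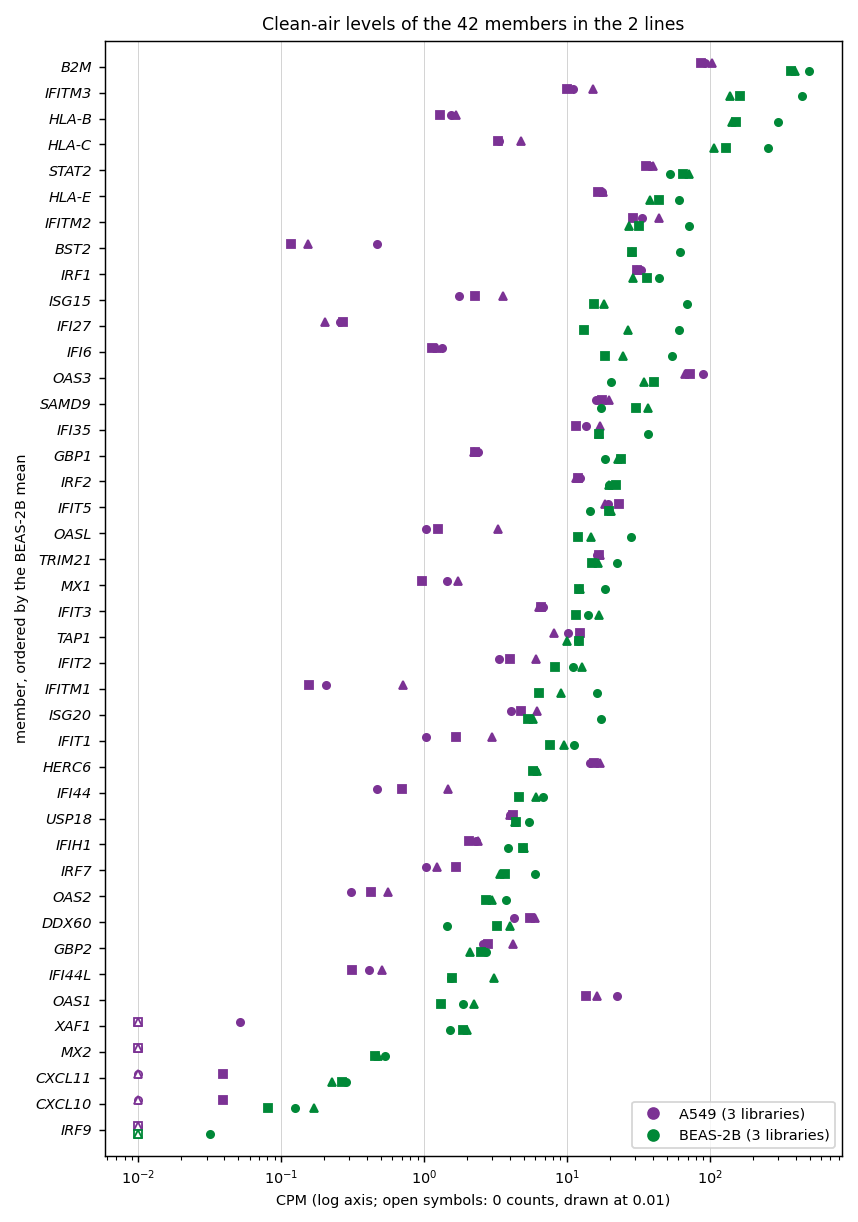
CPM (log axis, all 18 libraries scaled together) of the 42 members in the 3 clean air libraries of A549 and of BEAS-2B; symbols mark library 1 (circle), 2 (square) and 3 (triangle), and open symbols are 0 counts. BST2, IFI27, HLA-B and HLA-C lie far to the right in BEAS-2B, while OAS1, OAS3, HERC6 and DDX60 lie to the left.

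Per kilobase of annotated exon, IFITM2 had the highest clean-air level in A549, at 23.0 ± 5.13 CPM per kb (SD, n = 3), followed by B2M at 15.6 ± 1.42, with no overlap between the libraries of the pair. OAS3, IFITM3 and TRIM21 came next at 9.31 ± 1.44, 8.97 ± 2.03 and 8.63 ± 0.179 CPM per kb, and these 3 overlapped. BEAS-2B was led by IFITM3 at 184 ± 126 CPM per kb, then B2M at 69.0 ± 10.8, HLA-C at 65.7 ± 32.1 and HLA-B at 65.1 ± 28.8. The 3 libraries of IFITM3 spread from 103 to 329 CPM per kb, all above the highest B2M value of 81.4, while B2M, HLA-C and HLA-B overlapped. IRF9, the DNA-binding partner of STAT2, had 1 count in 1 library and 0 in the other 17. Of its exonic bases 48.4% also lie in exons of a second gene on the same strand (AL136295.5), reads in which cannot be assigned to 1 gene, and this part in its low count was not tested. CXCL10, a T cell attractant, reached 8 counts at most, and these 2 genes had too few counts for a test in either line.

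Of the 42 members, 34 passed the filter on low counts in A549 and 40 in BEAS-2B. A549 left out IRF9, OAS2, MX2, BST2, XAF1, IFI27, CXCL10 and CXCL11. Calls below are edgeR quasi-likelihood tests with a Benjamini-Hochberg adjusted p under 0.05 over all genes tested in the line, and a value such as "0.72 ± 0.15" is a log2 fold change with its standard error over 3 libraries a group.

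Smoke for 4 h moved the members in both directions. IRF7, IFITM2, IFITM3, IFI6, IFI35, B2M, TAP1, HLA-B and HLA-E were called higher in all 4 comparisons with clean air, and IRF2, IFIT5 and SAMD9 were called lower in all 4. In A549, complete smoke called 14 of 34 members (41.2%; 10 higher, 4 lower), beside 32.5% of all 15244 genes tested (15.6% higher, 16.9% lower). The members' median log2 fold change was 0.26, beside 0.02 for all genes. Filtered smoke called 16 of 34 in A549 (47.1%; 12 higher, 4 lower), beside 46.7% of all genes (23.1% higher, 23.5% lower), with a median of 0.33 beside 0.01. In A549 filtered smoke the share called was that of all genes or nearly so, with more higher than lower calls among the members. In BEAS-2B, complete smoke called 22 of 40 (55%; 14 higher, 8 lower), beside 41% of all 16356 genes (21.5% higher, 19.5% lower), with a median of 0.16 beside -0.06. BEAS-2B cells in filtered smoke also had 22 of 40 called (55%; 15 higher, 7 lower), beside 48.6% of all genes (23.6% higher, 24.9% lower), with a median of 0.46 beside -0.07. The 2 smokes of a line share their clean air libraries, so the 2 sets of calls are not independent.

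**Figure D2:**
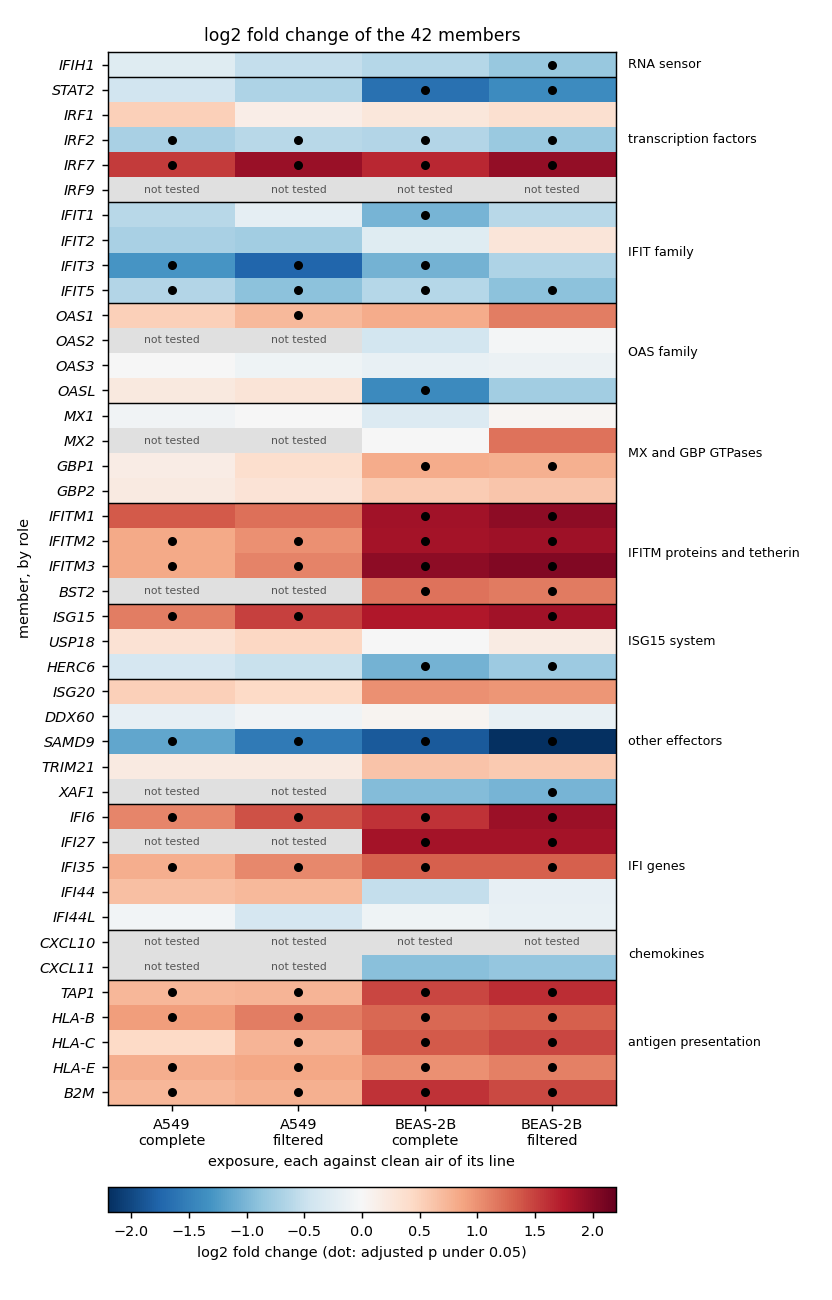
log2 fold change (colour) of the 42 members, grouped by role, after complete or filtered smoke against clean air in each line; dots mark an adjusted p under 0.05 and grey cells were under the count filter. The antigen presentation rows are red throughout with 4 dots of 5 in A549 complete smoke and 5 of 5 in the other 3 columns, and the IFIT rows are mostly blue.

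These counts moved with single libraries, and so did the calls over all genes. A549 complete smoke had 9 of 34 members called without clean air library 1 (13.2% of all genes in the same fit), 9 without clean air library 2 (12%) and 8 without complete smoke library 2 (9.11%). BEAS-2B complete smoke had 9 of 40 called without complete smoke library 1 (21.5% of all genes), 9 without complete smoke library 2 (22.5%), 7 without clean air library 2 (17.9%) and 6 without clean air library 3 (17.4%). Filtered smoke in that line had 10 without filtered smoke library 1 (28.3%), 9 without clean air library 2 (22.7%) and 9 without clean air library 3 (21.8%). In these 7 BEAS-2B fits the members' share, 15% to 25%, was near that of all genes. Without the 2 doubted BEAS-2B libraries, 26 of 40 members were called after complete smoke (18 higher, 8 lower), beside 63.5% of all genes. After filtered smoke 26 were called (19 higher, 7 lower), beside 63.4%. Both shares of all genes are near the members' share. That fit sets complete smoke libraries 1 and 2 against clean air libraries 2 and 3. Library number is thus not balanced with exposure in it, and the part of number was not tested. The labels name no pairing, but libraries of the same number deviated together, with a median correlation of 0.36 in A549 and 0.58 in BEAS-2B. In BEAS-2B 1 of 9 such pairs fell under 0.1, and its block counts stand in the last section only. With the number as a block 22 members were called in A549 after complete smoke (15 higher, 7 lower), beside 54.6% of all genes, and 22 after filtered smoke (14 higher, 8 lower), beside 61.7%. The split between higher and lower calls depended on the scaling in BEAS-2B: on library size alone it was 6 higher and 15 lower after complete smoke and 10 higher and 12 lower after filtered smoke, where the median of all genes was -0.75 and -0.74. No called member changed sign under any alternative tried, and changes below are relative to the bulk of genes.

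Of the 5 antigen presentation genes, 4 rose after complete smoke in A549, where 15.6% of all genes were called higher. All 5 rose in A549 filtered smoke and in BEAS-2B complete and filtered smoke, where 23.1%, 21.5% and 23.6% of all genes did. On library size alone, HLA-B (0.60, edgeR adjusted p = 0.0533), HLA-C (0.67, 0.0883) and HLA-E (0.34, 0.134) did not pass in BEAS-2B complete smoke. B2M (ENSG00000166710, chr15:44711487-44718877, plus strand, GENCODE v29 on GRCh38), the light chain of every MHC class I molecule, stood in A549 at 108, 102 and 126 CPM in clean air, 187, 199 and 169 CPM in complete smoke and 221, 187 and 173 CPM in filtered smoke. All 6 smoke libraries lay above the 3 clean air libraries, and the changes were 0.72 ± 0.15 (adjusted p = 0.00854) and 0.79 ± 0.15 (adjusted p = 0.00373) by edgeR with Benjamini-Hochberg adjustment. In BEAS-2B B2M stood at 442, 301 and 322 CPM in clean air, 1157, 1038 and 1026 CPM in complete smoke and 1058, 894 and 958 CPM in filtered smoke. It rose 3.02-fold and 2.73-fold, with adjusted p = 0.00228 and 0.00327 (edgeR). The lowest smoke library held about double the highest clean air library.

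TAP1 (ENSG00000168394, chr6:32845209-32853978, minus strand) is a chain of the transporter that pumps peptides into the endoplasmic reticulum for loading. It stood in A549 at 12, 14.3 and 9.77 CPM in clean air, 19.3, 22.4 and 18.6 CPM in complete smoke and 20.5, 21.8 and 18.7 CPM in filtered smoke. It rose by 0.74 ± 0.17 (adjusted p = 0.0132) after complete and 0.75 ± 0.17 (adjusted p = 0.00753) after filtered smoke (edgeR). In BEAS-2B TAP1 stood at 10.7, 9.82 and 8.2 CPM in clean air, 31.3, 30.1 and 17.6 CPM in complete smoke and 33.3, 30.5 and 24.8 CPM in filtered smoke. The changes were 1.46 ± 0.25 (adjusted p = 0.00418) and 1.63 ± 0.25 (adjusted p = 0.00337). No clean air library reached a smoke library in either line. TAP2, a gene of the further lists, had 1 count at most and 0 in 17 libraries, so nothing can be said of its change. Of its exonic bases 32.3% also lie in exons of AL669918.1, and this part in its low count was not tested.

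HLA-E, a class I chain that also engages NK cell receptors, stood in A549 at 20.8, 19.2 and 21.7 CPM in clean air, 30.5, 36.1 and 40.2 CPM in complete smoke and 33.5, 39.6 and 38.6 CPM in filtered smoke. In BEAS-2B HLA-E stood at 54.2, 35.9 and 31.3 CPM in clean air, 90.6, 92.2 and 61.2 CPM in complete smoke and 94.8, 93.3 and 75.3 CPM in filtered smoke. Its groups did not overlap, and its edgeR changes were 0.79 ± 0.15 (adjusted p = 0.00632) and 0.86 ± 0.15 (adjusted p = 0.00292) in A549 and 1.01 ± 0.26 (adjusted p = 0.0151) and 1.12 ± 0.26 (adjusted p = 0.00968) in BEAS-2B. HLA-B was low in A549, at 1.82, 1.5 and 2.03 CPM in clean air, 3.26, 3.83 and 3.01 CPM in complete smoke and 3.58, 4.79 and 3.22 CPM in filtered smoke. It was abundant in BEAS-2B, at 268, 124 and 117 CPM in clean air, 540.2, 395 and 287 CPM in complete smoke and 509, 406 and 354 CPM in filtered smoke. Despite that gap in level its fold rise was 1.9 and 2.18 in A549 and 2.4 and 2.49 in BEAS-2B, with edgeR adjusted p = 0.019, 0.00569, 0.0244 and 0.0186. HLA-C stood in A549 at 3.94, 3.81 and 5.71 CPM in clean air, 5.66, 5.79 and 6.75 CPM in complete smoke and 7.3, 7.74 and 7.58 CPM in filtered smoke. In BEAS-2B it stood at 229, 106 and 87.5 CPM in clean air, 493, 385 and 195 CPM in complete smoke and 476, 399.8 and 290.2 CPM in filtered smoke. The complete smoke libraries overlapped clean air in both lines, and the filtered smoke libraries did not. HLA-C in complete smoke stood at 1.44, 1.52 and 1.18 times the same-numbered clean air library in A549 and 2.15, 3.62 and 2.23 times in BEAS-2B. It passed in 3 of the 4 comparisons, with 0.75 ± 0.20 (adjusted p = 0.0134) in A549 filtered smoke, 1.34 ± 0.44 (adjusted p = 0.0354) and 1.46 ± 0.44 (adjusted p = 0.0236) in BEAS-2B. After complete smoke in A549 its change was 0.44 ± 0.20 (adjusted p = 0.11) by edgeR, which did not pass, and with the library number as a block it was 0.45 with an adjusted p of 0.0448. HLA genes resemble each other, and 5.38% of the 50-base words of HLA-C transcripts were shared with other genes.

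**Figure D3:**
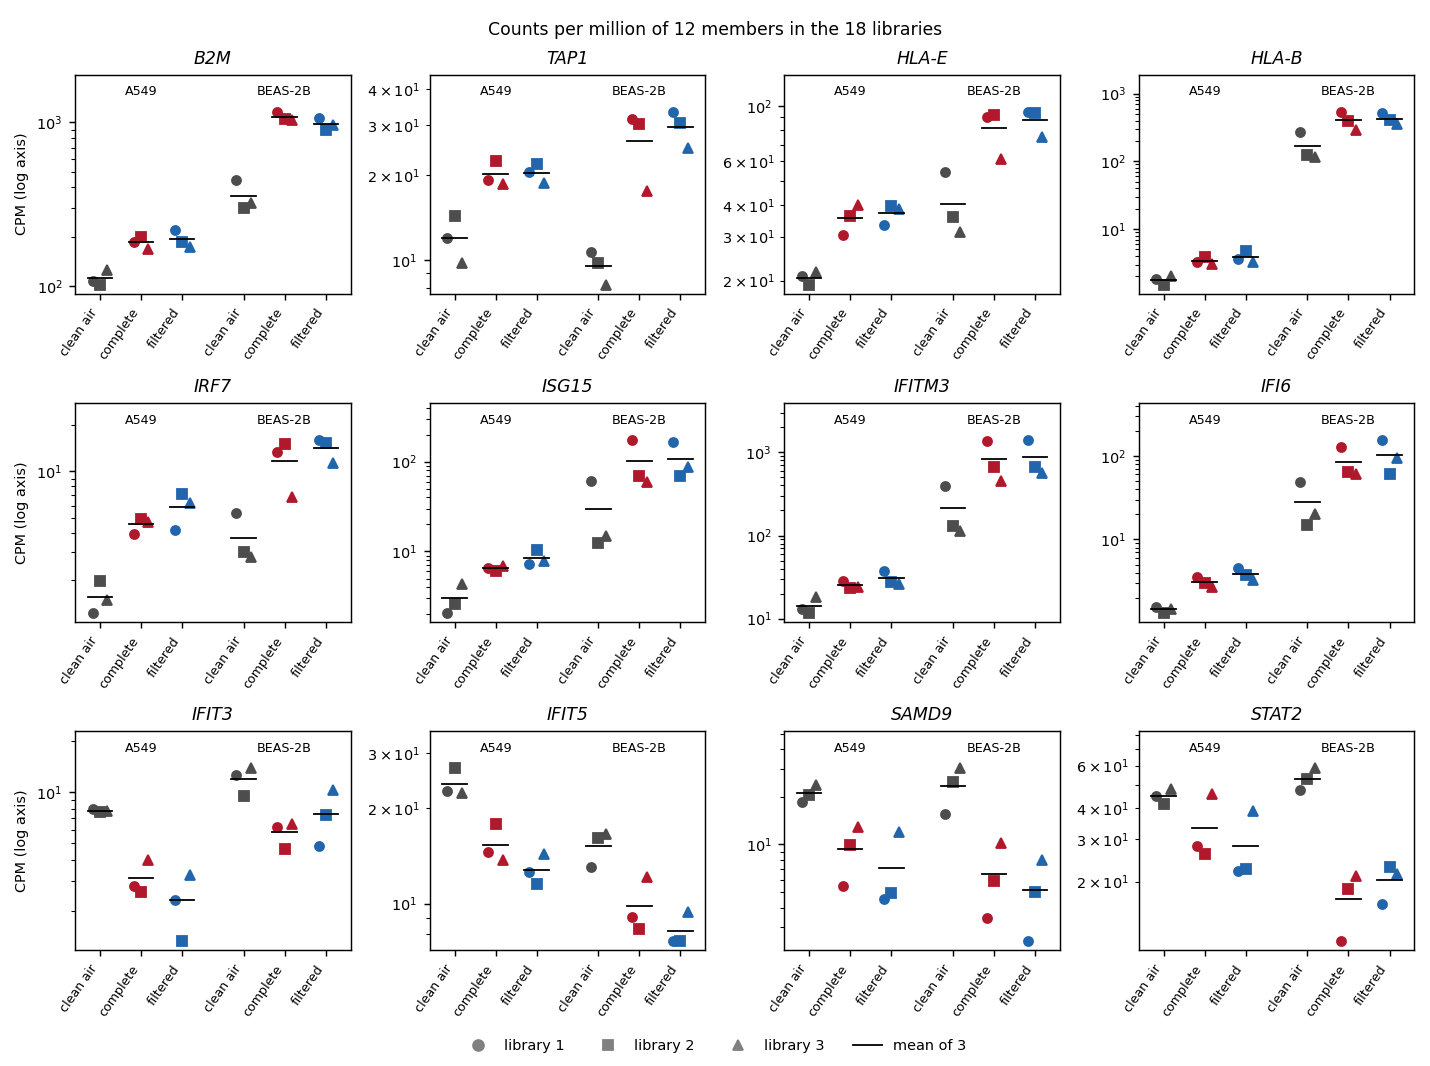
CPM (log axis, each line scaled on its own) of 12 members in the 3 libraries of each group; colours are clean air (grey), complete smoke (red) and filtered smoke (blue), symbols are the library number and lines are means of 3. The upper 8 genes sit higher after smoke and the lower 4 sit lower, with overlap for STAT2 in A549 complete smoke, IFIT3 in BEAS-2B filtered smoke and ISG15 in BEAS-2B complete smoke.

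Among the transcription factors, IRF7 (ENSG00000185507, chr11:612553-615999), the amplifier of type I interferon responses, had the largest rise of the 34 members tested in A549. It stood there at 1.21, 1.95 and 1.47 CPM in clean air, 3.96, 4.96 and 4.71 CPM in complete smoke and 4.16, 7.13 and 6.26 CPM in filtered smoke. Every smoke library was more than double the highest clean air library. The edgeR changes were 1.54 ± 0.27 (adjusted p = 0.00463) and 1.91 ± 0.27 (adjusted p = 0.00132). In BEAS-2B IRF7 stood at 5.38, 3.0 and 2.79 CPM in clean air, 13.4, 15 and 6.86 CPM in complete smoke and 16, 15.2 and 11.3 CPM in filtered smoke. The groups did not overlap. Complete smoke library 3 was the lowest of the smoke libraries, and the changes were 1.66 ± 0.36 (adjusted p = 0.00874) and 1.93 ± 0.36 (adjusted p = 0.00522). IRF7 and B2M passed in all 4 comparisons under every alternative tried.

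IRF2, which competes with IRF1 for its sites and mostly represses, fell in all 4 comparisons. It stood in A549 at 14.4, 13.9 and 14 CPM in clean air, 9.77, 8.1 and 8.05 CPM in complete smoke and 8.17, 10.1 and 9.31 CPM in filtered smoke. In BEAS-2B IRF2 stood at 17.6, 17.8 and 16.1 CPM in clean air, 11, 13.3 and 8.54 CPM in complete smoke and 8.61, 11.4 and 9.25 CPM in filtered smoke. The groups did not overlap. The edgeR changes ran from -0.82 (adjusted p = 0.0155, BEAS-2B filtered smoke) to -0.61 (adjusted p = 0.0113, A549 filtered smoke). The BEAS-2B complete smoke call of IRF2 was lost in 10 of 16 alternatives. Among them, by edgeR, were no filter (-0.68, adjusted p = 0.0942), counts that ignore strand (-0.60, adjusted p = 0.055) and the 2 doubted BEAS-2B libraries left out (-0.45, adjusted p = 0.1). STAT2 (ENSG00000170581, chr12:56341597-56360155), the interferon-specific STAT, fell in BEAS-2B, from 47.5, 53 and 58.5 CPM in clean air to 11.3, 18.5 and 21 CPM after complete and 16.2, 23 and 21.4 CPM after filtered smoke. The changes there were -1.65 ± 0.26 (adjusted p = 0.00309) and -1.39 ± 0.25 (adjusted p = 0.00496) by edgeR. In A549 STAT2 stood at 44.9, 41.6 and 48 CPM in clean air, 28.1, 25.9 and 45.9 CPM in complete smoke and 22.2, 22.5 and 39.1 CPM in filtered smoke. Its changes of -0.43 and -0.68 did not pass (edgeR adjusted p = 0.228 and 0.059). With the library number as a block they were -0.48 and -0.74 and passed (edgeR adjusted p = 0.0174 and 0.0012). IRF1, the driver of the interferon gamma arm, was not called, with changes from 0.15 to 0.52, and after complete smoke in A549 it passed with the block (0.48, edgeR adjusted p = 0.0285) and without complete smoke library 1 (0.72, adjusted p = 0.0395).

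The IFIT family, whose proteins bind viral RNA and block its translation, was lower or not called, and no member was called higher. IFIT3 (ENSG00000119917, chr10:89327894-89340971) fell in A549 from 7.94, 7.63 and 7.74 CPM to 2.83, 2.6 and 4.03 CPM after complete and 2.34, 1.34 and 3.28 CPM after filtered smoke. The groups did not overlap, and the falls were 2.46-fold and 3.35-fold (edgeR adjusted p = 0.0119 and 0.00277). In BEAS-2B IFIT3 stood at 12.6, 9.43 and 13.8 CPM in clean air, 6.28, 4.61 and 6.5 CPM in complete smoke and 4.83, 7.35 and 10.2 CPM in filtered smoke. The change was -1.04 ± 0.30 (adjusted p = 0.0231) after complete and -0.67 ± 0.30 (adjusted p = 0.0829) after filtered smoke (edgeR). The latter did not pass, and its groups overlapped. IFIT3 in filtered smoke stood there at 0.384, 0.780 and 0.743 of the same-numbered clean air library. IFIT5 passed in all 4 comparisons. It stood in A549 at 22.7, 26.8 and 22.4 CPM in clean air, 14.6, 17.8 and 13.7 CPM in complete smoke and 12.6, 11.5 and 14.3 CPM in filtered smoke. In BEAS-2B IFIT5 stood at 13.1, 16.1 and 16.6 CPM in clean air, 9.09, 8.31 and 12.1 CPM in complete smoke and 7.59, 7.62 and 9.42 CPM in filtered smoke. Its edgeR changes ran from -0.90 (adjusted p = 0.00324, A549 filtered smoke) to -0.63 (adjusted p = 0.0413, BEAS-2B complete smoke). IFIT1 was called in BEAS-2B complete smoke alone (-1.03 ± 0.32, adjusted p = 0.0313, edgeR), where it fell from 9.99, 6.16 and 7.77 CPM to 4.1, 3.49 and 4.11 CPM. IFIT2 was not called, with values of -0.72 and -0.76 in A549, where the block gave -0.82 and -0.90 and called both (edgeR adjusted p = 0.0076 and 0.00377).

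SAMD9 (ENSG00000205413, chr7:93099513-93118023), an antiviral and growth-restraining protein, had the largest fall of the list in BEAS-2B and the largest after IFIT3 in A549. It stood in A549 at 18.6, 20.6 and 23.7 CPM in clean air, 5.45, 9.86 and 12.9 CPM in complete smoke and 4.53, 4.96 and 11.9 CPM in filtered smoke. In BEAS-2B SAMD9 stood at 15.5, 24.6 and 30.3 CPM in clean air, 3.44, 5.92 and 10.2 CPM in complete smoke and 2.45, 5.01 and 7.93 CPM in filtered smoke. Library 1 of a group was the lowest and library 3 the highest each time, and no smoke library reached a clean air library. The edgeR changes were -1.15 ± 0.38 (adjusted p = 0.0429) and -1.55 ± 0.39 (adjusted p = 0.0108) in A549 and -1.85 ± 0.49 (adjusted p = 0.0182) and -2.19 ± 0.50 (adjusted p = 0.00965) in BEAS-2B. IFIH1 (MDA5, a sensor of long double-stranded RNA) was called in BEAS-2B filtered smoke (-0.83 ± 0.30, adjusted p = 0.0441, edgeR), where it fell from 3.43, 4.01 and 4.1 CPM to 1.53, 2.3 and 2.64 CPM. HERC6, a HERC family ubiquitin ligase, fell in BEAS-2B from 5.32, 4.72 and 5.02 CPM to 1.87, 2.9 and 2.53 CPM and 2.08, 3.3 and 3.23 CPM (-1.05 ± 0.26, adjusted p = 0.013 and -0.80 ± 0.25, adjusted p = 0.0274, edgeR), with no overlap. XAF1, a pro-apoptotic protein, was near 0 in A549 and fell in BEAS-2B filtered smoke from 1.35, 1.52 and 1.64 CPM to 0.34, 0.772 and 1.06 CPM (-1.03 ± 0.38, adjusted p = 0.0499, edgeR), a call that was lost in 9 of 16 alternatives.

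The IFITM proteins, which stop enveloped viruses from fusing with the cell, were higher. IFITM3 stood in A549 at 13, 11.6 and 18.3 CPM in clean air, 28.7, 23.5 and 24.1 CPM in complete smoke and 37.7, 27.5 and 25.9 CPM in filtered smoke. In BEAS-2B IFITM3 stood at 396, 132 and 114 CPM in clean air, 1386, 665 and 447 CPM in complete smoke and 1413, 660.1 and 558 CPM in filtered smoke. The edgeR changes were 0.83 ± 0.21 (adjusted p = 0.0185) and 1.09 ± 0.21 (adjusted p = 0.00436) in A549 and 1.96 ± 0.61 (adjusted p = 0.0308) and 2.04 ± 0.61 (adjusted p = 0.0241) in BEAS-2B. In BEAS-2B, library 1 was about double or more the other libraries of its group in clean air and in both smokes, and the standard error was 0.61 there against 0.21 in A549. IFITM2 stood in A549 at 39.2, 33.7 and 53.4 CPM in clean air, 76.6, 73.8 and 75 CPM in complete smoke and 90.9, 76.4 and 85.8 CPM in filtered smoke. It rose 1.78-fold and 2-fold (edgeR adjusted p = 0.00954 and 0.00291). In BEAS-2B it stood at 63.7, 26 and 22.5 CPM in clean air, 194, 127 and 79.3 CPM in complete smoke and 192, 121 and 94.5 CPM in filtered smoke. It rose 3.57-fold and 3.63-fold (adjusted p = 0.0166 and 0.014). IFITM1 rose in BEAS-2B from 14.4, 5.2 and 7.4 CPM to 49.2, 23.9 and 24.2 CPM and 53.7, 22.2 and 29.8 CPM (1.85 ± 0.48, adjusted p = 0.0163 and 1.97 ± 0.48, adjusted p = 0.0119, edgeR). In A549 IFITM1 stayed under 2 CPM, at 1.35 and 1.2 with adjusted p = 0.232 and 0.27, and the block called both (1.30 and 1.12, edgeR adjusted p = 0.0111 and 0.0225). IFITM1, IFITM2 and IFITM3 share 32.0%, 34.1% and 17.4% of their 50-base words with other genes, and IFITM1 and IFITM2 share exons, so how reads divide between them is uncertain. BST2 rose in BEAS-2B from 55.8, 23.1 and 23.3 CPM to 106, 71.8 and 56.6 CPM and 87.5, 70 and 69.5 CPM (1.2 ± 0.37, adjusted p = 0.03 and 1.15 ± 0.37, adjusted p = 0.0303, edgeR).

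ISG15 (ENSG00000187608, chr1:1001138-1014540) itself, the ubiquitin-like modifier, rose in A549, where it stood at 2.06, 2.63 and 4.3 CPM in clean air, 6.58, 6.08 and 6.97 CPM in complete smoke and 7.3, 10.4 and 7.81 CPM in filtered smoke. No groups overlapped against clean air, and the edgeR changes were 1.13 ± 0.27 (adjusted p = 0.0145) and 1.51 ± 0.27 (adjusted p = 0.0031). BEAS-2B held it at 61.6, 12.6 and 14.9 CPM in clean air, 174, 69.4 and 59.4 CPM in complete smoke and 165, 69.5 and 86 CPM in filtered smoke. Clean air library 1 lay within the range of the complete smoke libraries. By edgeR the change of 1.77 ± 0.67 (adjusted p = 0.0585) did not pass. That after filtered smoke did, at 1.85 ± 0.67 (adjusted p = 0.0455, edgeR), and was lost in 8 of 16 alternatives. Set against the clean air library of the same number, ISG15 in complete smoke stood 2.83, 5.51 and 3.98 times as high. USP18, the protease that removes ISG15, was not called, with changes from -0.01 to 0.46, and 23.4% of its 50-base words are shared with other genes. IFI6, a small antiviral membrane protein, stood in A549 at 1.58, 1.32 and 1.47 CPM in clean air, 3.54, 2.99 and 2.72 CPM in complete smoke and 4.53, 3.73 and 3.28 CPM in filtered smoke. In BEAS-2B IFI6 stood at 48.8, 15 and 20.2 CPM in clean air, 128, 64 and 60.1 CPM in complete smoke and 155, 60.9 and 95.2 CPM in filtered smoke. Its groups did not overlap, with edgeR changes of 1.08 ± 0.23 (adjusted p = 0.00956), 1.4 ± 0.23 (adjusted p = 0.00214), 1.59 ± 0.51 (adjusted p = 0.0347) and 1.89 ± 0.52 (adjusted p = 0.0175) in that order. IFI35 rose in A549 from 16, 13.6 and 20.6 CPM to 29.7, 28.5 and 29.1 CPM and 35.9, 37.8 and 30.5 CPM (0.80 ± 0.17, adjusted p = 0.0105 and 1.06 ± 0.17, adjusted p = 0.00226, edgeR). In BEAS-2B IFI35 stood at 32.9, 13.7 and 13.8 CPM in clean air, 71.6, 47 and 31.5 CPM in complete smoke and 64, 43.2 and 42.8 CPM in filtered smoke. The changes were 1.32 ± 0.41 (adjusted p = 0.0309) and 1.31 ± 0.41 (adjusted p = 0.0274) by edgeR, and complete smoke library 3 lay below clean air library 1. Against the same-numbered clean air library, IFI35 in complete smoke stood 2.18, 3.43 and 2.29 times as high. IFI27 rose in BEAS-2B from 54.8, 10.8 and 22 CPM to 162, 58.9 and 89.1 CPM and 154, 52.3 and 104 CPM (1.83 ± 0.62, adjusted p = 0.0417 and 1.82 ± 0.62, adjusted p = 0.0371, edgeR). Its filtered smoke libraries overlapped clean air, and stood at 2.81, 4.84 and 4.72 times the same-numbered clean air library.

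Of the OAS family and the GTPases, 3 genes were called. OAS1 stood in A549 at 26.1, 15.9 and 19.7 CPM in clean air, 35.5, 28.6 and 24.3 CPM in complete smoke and 43.9, 29.3 and 27.8 CPM in filtered smoke. It was called after filtered smoke (0.71 ± 0.24, adjusted p = 0.035) and not after complete smoke (0.52 ± 0.24, adjusted p = 0.117, edgeR), where the block called it (0.53, adjusted p = 0.00632). OAS3, the most abundant OAS gene of A549 by CPM per kb, stood there at 106, 84.8 and 81.5 CPM in clean air, 93.7, 82 and 95.7 CPM in complete smoke and 87.7, 76.1 and 90.1 CPM in filtered smoke. It was not called. OASL, an OAS-like protein without the enzyme's activity, fell in BEAS-2B complete smoke from 25, 9.75 and 12 CPM to 7.17, 4.82 and 5.71 CPM (-1.4 ± 0.37, adjusted p = 0.0171, edgeR), with clean air library 1 more than double the other clean air libraries. GBP1, a guanylate-binding GTPase of the interferon gamma arm, rose in BEAS-2B from 16.6, 19.4 and 18.8 CPM to 30, 32.5 and 33.4 CPM and 23.4, 31.8 and 39.5 CPM (0.81 ± 0.21, adjusted p = 0.0166 and 0.79 ± 0.21, adjusted p = 0.0156, edgeR). On library size alone its changes were 0.12 and 0.13 and did not pass (edgeR adjusted p = 0.76 and 0.742). The BEAS-2B rises of BST2, IFI27 and IFI35 after both smokes, of IFI6 after complete and of ISG15 after filtered smoke, and that of OAS1 in A549 filtered smoke, also did not pass on library size alone, with edgeR adjusted p from 0.0671 (OAS1) to 0.1 (BST2). MX1, the classical antiviral GTPase, had edgeR changes from -0.29 to 0.04 and was not called. In all, 14 tested members were called in none of the comparisons with clean air: IRF1, IFIT2, OAS2, OAS3, MX1, MX2, GBP2, USP18, the exonuclease ISG20, the helicase DDX60, the antibody receptor TRIM21, IFI44, IFI44L and the chemokine CXCL11. Their changes ran from -0.72 (IFIT2) to 0.67 (IFI44) in A549 complete smoke and from -0.85 (CXCL11) to 1.2 (MX2) in BEAS-2B filtered smoke. With the library number as a block, A549 also called ISG20 (0.50 and 0.43, edgeR adjusted p = 0.0139 and 0.0263), HERC6 (-0.38 and -0.50, adjusted p = 0.0331 and 0.00694) and, after filtered smoke, IFIH1 (-0.53, adjusted p = 0.0466).

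Groups that did not overlap were counted as a second description. In A549 10 members lay wholly above clean air after complete smoke and 5 wholly below, where 25.4% and 27.1% of all genes did, and 15 and 6 did so after filtered smoke, where 27.6% and 29.9% did. In BEAS-2B the counts were 12 and 9 after complete smoke (24% and 24.8% of all genes) and 17 and 8 after filtered smoke (29.1% and 32.3%). By motif, the ISRE letters were in 8 of the 11 matched windows of members higher in BEAS-2B complete smoke, in 4 of 6 of those lower and in 9 of 13 of those not called. In A549 filtered smoke these 3 counts were 5 of 9, 3 of 3 and 11 of 14. They were 5 of 7, 3 of 3 and 11 of 16 in A549 complete smoke, and 9 of 12, 3 of 6 and 9 of 12 in BEAS-2B filtered smoke.

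Gene span moved with these results. In all 4 comparisons with clean air the median log2 fold change of all genes fell with the annotated span of the gene, when genes were put in 5 bins of equal number. It fell in A549 complete smoke from 0.50 in the bin of shortest genes to -0.50 in the longest, and in BEAS-2B filtered smoke from 0.58 to -0.69. The members called higher in BEAS-2B filtered smoke had a median span of 7.64 kb, and 14 of the 15 lay in the 2 shortest bins. Those called lower had a median span of 20.2 kb, with 1 of 7 in the 2 shortest bins. In A549 complete smoke 9 of 10 higher and 3 of 4 lower members lay in the 2 shortest bins. The rises of B2M, IRF7, TAP1 and IFI6 exceeded the medians of their bins in all 4 comparisons, and IFIT5, with a span of 6.42 kb, and IFIT3, with 13.1 kb, lay opposite to theirs. The part of span in the results was not tested.

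**Figure D4:**
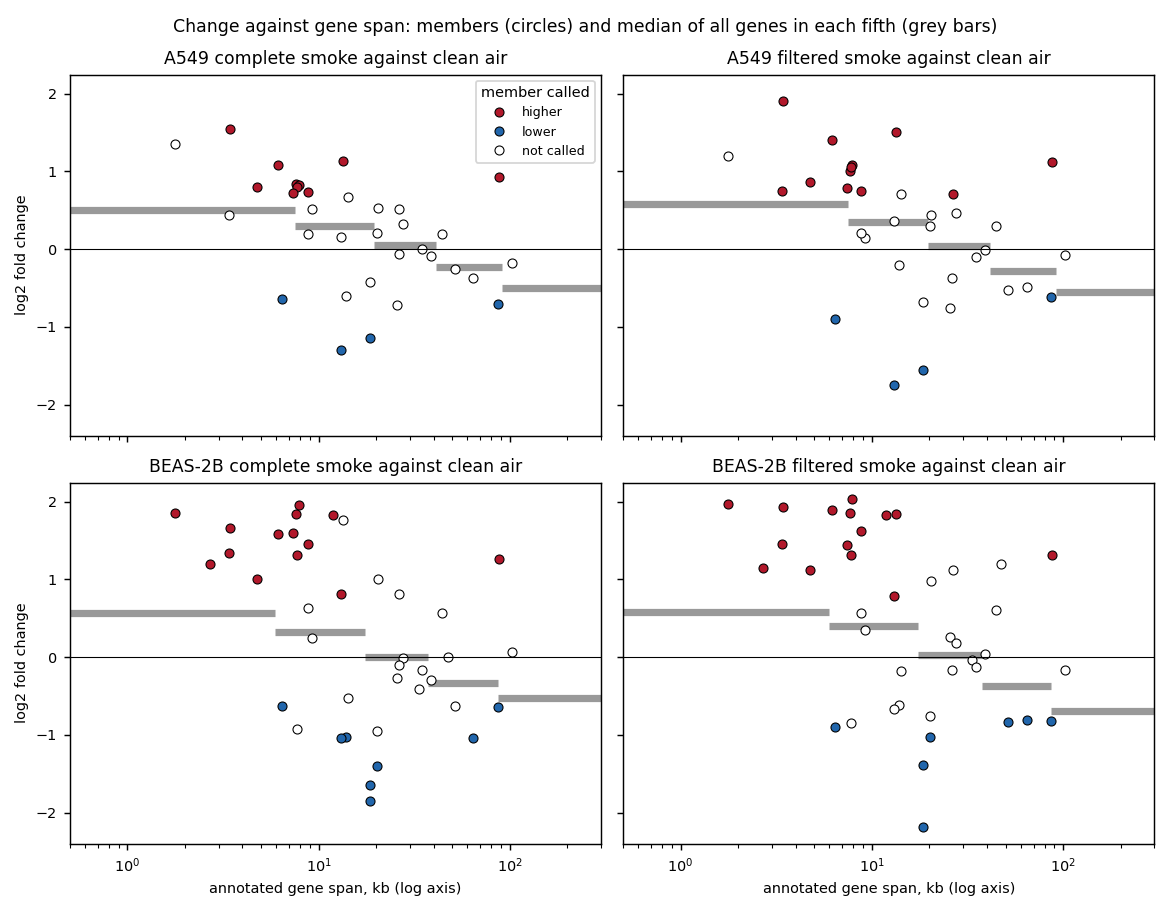
log2 fold change against annotated gene span (log axis) for the members (circles; red higher, blue lower, white not called) and the median of all tested genes in each of 5 bins of span (grey bars). The grey bars step down from short to long genes in all 4 panels, and IFIT3, IFIT5 and SAMD9 lie below the bars at their span.

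Library number also moved with levels. In BEAS-2B 16 of 40 tested members (40.0%) had their highest value in library 1 of each of the 3 groups, where 25.6% of all genes did, among them IFITM1, IFITM2, IFITM3, BST2, ISG15, IFI6, IFI27, IFI35, TAP1, HLA-B, HLA-C and B2M. In A549 12 of 34 (35.3%) had it in library 3 of each group, where 18.4% of all genes did, among them STAT2, IFIT2, SAMD9, OASL and IFITM1. Beyond the fits that take the number as a block, its part in the results was not tested.

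No member passed between complete and filtered smoke. In A549 0 of 34 members passed between the 2 smokes, where 0% of all genes did, 0 had an unadjusted p under 0.05, and DESeq2 called 0. BEAS-2B likewise had 0 of 40, beside 0% of all genes, 0 with an unadjusted p under 0.05, and 0 by DESeq2. With the library number as a block, A549 again had 0 of 34 and 0 with an unadjusted p under 0.05, and the smallest adjusted p was 0.756 (edgeR). ISG15 then stood at -0.38 (adjusted p = 0.762) and IRF7 at -0.35 (adjusted p = 0.756). For B2M the difference, complete minus filtered, was -0.07 (95% interval -0.39 to 0.26) in A549 and 0.15 (95% interval -0.34 to 0.64) in BEAS-2B on the log2 scale. IRF7 differed by -0.37 (95% interval -0.92 to 0.18) and -0.27 (95% interval -1.05 to 0.51). ISG15 gave -0.38 (95% interval -0.95 to 0.19) and -0.08 (95% interval -1.54 to 1.38), which in BEAS-2B leaves room for more than a doubling either way. The interval lay within 1 log2 unit of 0 for 26 of 34 members in A549 and 19 of 40 in BEAS-2B. In A549 ISG15, IFI35 and HLA-C were lower in all 3 complete than in all 3 filtered smoke libraries, where 1.69% of all genes were, and 0 members were higher (2.39% of all genes). Between A549 libraries of the same number, 10 of 34 members (29.4%) were lower after complete smoke in all 3 pairs, where 20.7% of all genes were (IRF7, IFIT1, OAS1, IFITM2, IFITM3, ISG15, IFI6, IFI35, HLA-B and HLA-C). Another 7 (20.6%) were higher in all 3, where 21.5% of all genes were (IFIH1, STAT2, IRF1, IFIT3, OAS3, IFITM1 and SAMD9). In BEAS-2B 0 members lay wholly above or wholly below filtered smoke after complete smoke (2.9% of all genes higher, 2.32% lower). Between BEAS-2B libraries of the same number, 6 of 40 members (15%) were lower after complete smoke in all 3 pairs, where 16.7% of all genes were. These were STAT2, IRF7, MX2, HERC6, TAP1 and HLA-E. Another 3 (7.5%) were higher in all 3, where 17.4% of all genes were (IFIT5, SAMD9 and B2M).

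The 2 lines were compared by the difference of their changes (BEAS-2B minus A549) in a fit of all 18 libraries. None of 39 members passed after complete smoke, beside 1.74% of all 17703 genes (0.565% higher, 1.17% lower), or after filtered smoke, beside 0.825%, by edgeR. An unadjusted p under 0.05 was found for 8 and 4, and DESeq2 called 2 (B2M and STAT2) and 0. For B2M the difference was 0.87 (95% interval 0.36 to 1.39) after complete smoke (adjusted p = 0.083) and 0.68 (95% interval 0.16 to 1.19) after filtered smoke (adjusted p = 0.216, edgeR). For STAT2 the difference was -1.24 (95% interval -2.04 to -0.44) and -0.70 (95% interval -1.5 to 0.09), with edgeR adjusted p = 0.108 and 0.421. TAP1 gave 0.73 (95% interval 0.05 to 1.41) and 0.89 (95% interval 0.21 to 1.57). IRF7 gave 0.15 (95% interval -0.85 to 1.14) and 0.05 (95% interval -0.97 to 1.07), which does not show equal changes. Without the 2 doubted BEAS-2B libraries, 12 members passed after complete smoke (11 higher in BEAS-2B, 1 lower), beside 21.5% of all genes. After filtered smoke 3 passed (IFITM2, HLA-C and B2M), beside 5.16%. B2M was then at 1.07 (edgeR adjusted p = 0.00999) and STAT2 at -1.49 (adjusted p = 0.0204) after complete smoke. In that fit BEAS-2B complete smoke libraries 1 and 2 stand against clean air libraries 2 and 3. Library number is thus not balanced with exposure, and its part was not tested. Leaving out clean air library 1 of BEAS-2B alone called B2M (1.01, adjusted p = 0.0347).

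**Figure D5:**
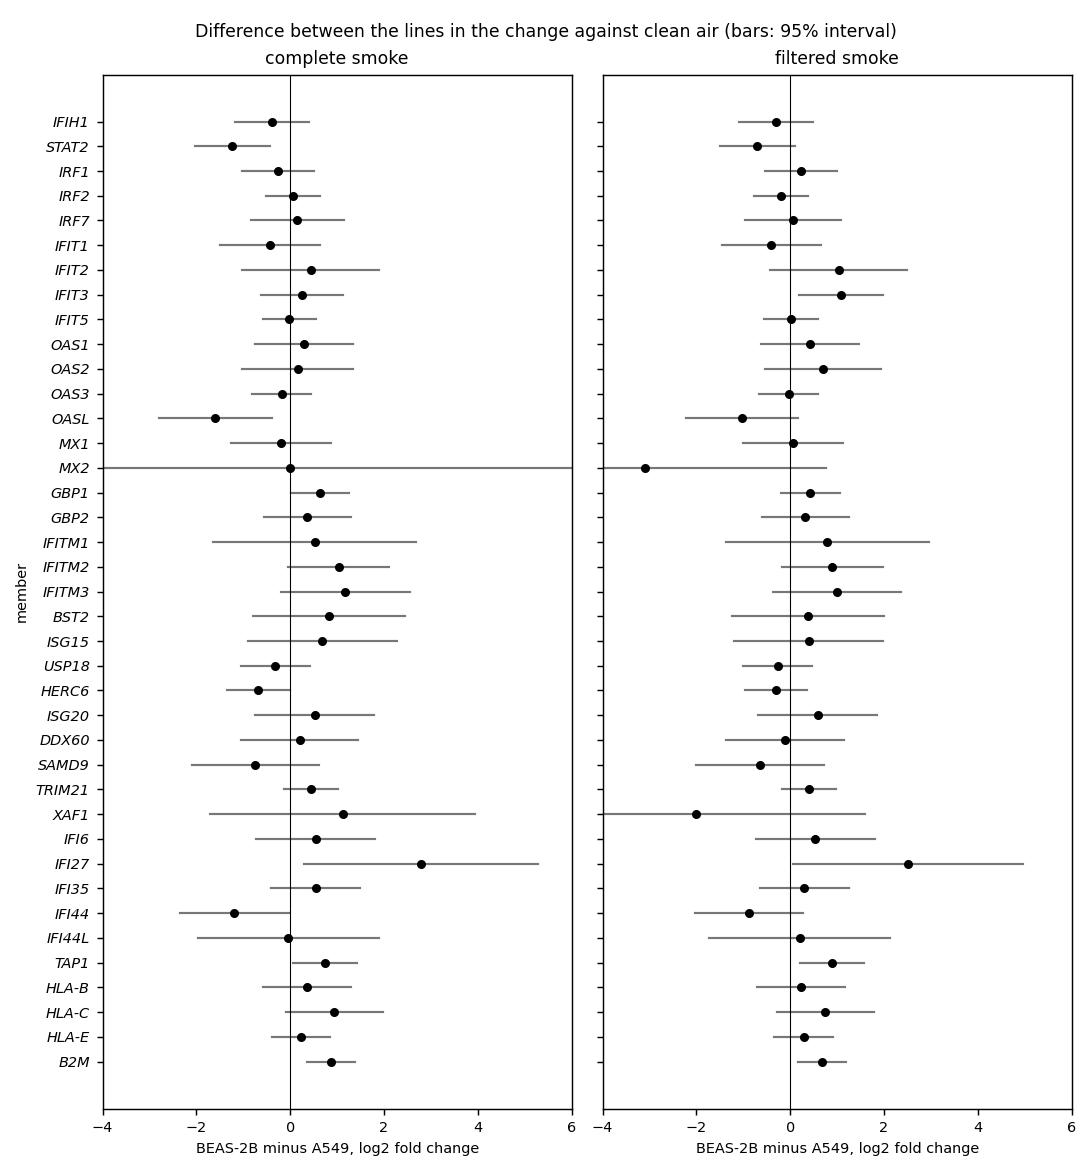
Difference between the lines, BEAS-2B minus A549, in the log2 fold change against clean air after complete and filtered smoke for the 39 members of the joint fit; points are estimates and bars 95% intervals, those of MX2 and XAF1 running past the axis. Most bars cross 0, and B2M and TAP1 lie to the right of 0 in both panels.

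The genes around the list were described from 5 further lists of the pathway. Their counts stand beside the shares of all genes called higher and lower, which were 15.6% and 16.9% in A549 complete smoke, 23.1% and 23.5% in A549 filtered smoke, 21.5% and 19.5% in BEAS-2B complete smoke and 23.6% and 24.9% in BEAS-2B filtered smoke. Of the interferons, IFNA1, IFNG and IFNK had 0 counts in all 18 libraries, which allows up to 3 counts, or 0.208 CPM in the shallowest and 0.0545 CPM in the deepest library by counting error alone. IFNB1, IFNL1, IFNL2 and IFNL3 had at most 2, 3, 2 and 1 counts. IFNE, a constitutively expressed epithelial interferon, was tested and not called. Among 9 receptor and kinase genes, A549 had 0 higher and 4 lower after complete smoke and 1 and 5 after filtered smoke, and BEAS-2B had 1 and 2 after each. IFNAR1, a type I receptor chain, was lower by edgeR in A549 (-0.94 ± 0.23, adjusted p = 0.0157 and -1.26 ± 0.23, adjusted p = 0.00336) and in BEAS-2B (-1.21 ± 0.29, adjusted p = 0.0126 and -1.53 ± 0.29, adjusted p = 0.00568). Its partner IFNAR2 was lower in A549 (-1.25 ± 0.21, adjusted p = 0.00408 and -1.22 ± 0.21, adjusted p = 0.00285) and in BEAS-2B (-0.91 ± 0.22, adjusted p = 0.0118 and -1.2 ± 0.22, adjusted p = 0.00473). IFNGR2, of the interferon gamma receptor, was higher in BEAS-2B filtered smoke (1.04 ± 0.22, adjusted p = 0.00722), and IL10RB, a chain of the interferon lambda receptor, lower in A549 filtered smoke (-1.29 ± 0.31, adjusted p = 0.0094). Exons of AP000295.1 cover 44.2% of the exonic bases of IFNAR2 and 38.1% of those of IL10RB, so their counts are uncertain. Unscaled IFNAR2 counts on the strand used were 351, 340 and 331 in BEAS-2B clean air and 200, 123 and 139 after complete smoke. Ignoring strand they were 43, 51 and 68, and 40, 28 and 52, so that fall depends on the count used. In A549, ignoring strand, they were 55, 91 and 54 in clean air and 20, 29 and 34 after complete smoke.

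Nucleic acid sensing genes had 1 higher and 3 lower of 9 in A549 complete smoke, 2 and 4 of 9 in filtered smoke, and 2 and 3 of 10 in BEAS-2B after each smoke, the last near the shares of all genes. MAVS, the mitochondrial adaptor of RNA sensors, changed by -1.04 ± 0.19 (adjusted p = 0.00557), -1.27 ± 0.19 (adjusted p = 0.00165), -0.91 ± 0.20 (adjusted p = 0.00921) and -1.0 ± 0.20 (adjusted p = 0.00632) by edgeR (A549 complete and filtered, BEAS-2B complete and filtered). IRF3, the factor that switches on IFNB1, was higher in A549 filtered smoke (1.22 ± 0.21, adjusted p = 0.00285), the kinase TBK1 lower there (-0.62 ± 0.13, adjusted p = 0.0059), and the endosomal sensor TLR3 lower in BEAS-2B filtered smoke (-1.92 ± 0.38, adjusted p = 0.00638). Feedback inhibitors had 3 higher and 1 lower of 5 in each of the 4 comparisons. SOCS1, which shuts off JAK kinases, rose by 3.84 ± 0.54 (adjusted p = 0.00206), 4.35 ± 0.54 (adjusted p = 0.000888), 1.78 ± 0.45 (adjusted p = 0.015) and 2.23 ± 0.45 (adjusted p = 0.00661), and SOCS3 by 2.0 ± 0.27 (adjusted p = 0.00174), 2.49 ± 0.27 (adjusted p = 0.000606), 1.09 ± 0.18 (adjusted p = 0.00335) and 1.26 ± 0.18 (adjusted p = 0.00255) in the same order (edgeR). SOCS1 had only 4, 8 and 8 counts in A549 clean air and 54 to 209 after smoke, so the size of its rise there rests on a low baseline. In BEAS-2B clean air it had 27, 30 and 13 counts. PIAS1, a SUMO ligase, fell in all 4 comparisons, from -1.11 to -0.86, and the phosphatase PTPN6 rose in A549 filtered smoke (0.83 ± 0.15, adjusted p = 0.0035). Of 16 tested genes of peptide loading and class I control, 5 were higher and 0 lower in A549 complete smoke, 6 and 1 in filtered smoke, and in BEAS-2B 5 and 1 and then 5 and 2. Those higher in A549 filtered smoke included the proteasome activator subunits PSME1 (0.91 ± 0.15, adjusted p = 0.00207) and PSME2 (1.1 ± 0.19, adjusted p = 0.00291), the immunoproteasome subunit PSMB9 (1.36 ± 0.25, adjusted p = 0.00332) and RFXANK, a subunit of a factor at MHC promoters (1.2 ± 0.20, adjusted p = 0.0025). The same 3 proteasome genes changed in BEAS-2B filtered smoke by 1.53, 1.59 and 1.7 (edgeR adjusted p = 0.0109, 0.0117 and 0.0165). Genes named from this list were picked by smallest adjusted p, and all of them rose. The list as a whole did not: after filtered smoke 9 of 16 were not called in each line, and 1 in A549 and 2 in BEAS-2B were lower.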

How the data were processed

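The values are read counts for each gene, which the authors deposited and made with STAR 2.7.10b on GRCh38, per the submitters' processing notes; the annotation release is not given in the sources used here. Of the 3 count columns, the one for the strand holding 11.7 to 17.1 times the reads of the other was used, and the 4 summary lines were left out of library sizes; the labels name a library kit that does not mark strand, so counts that ignore strand were tried as an alternative. Of 62649 gene IDs, 62643 were paired with a symbol, and positions, exons and spans came from GENCODE release 29.

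Counts were fitted in edgeR 4.0.16 (R 4.3.3; low counts removed with filterByExpr, TMM scaling, robust quasi-likelihood test), 9 libraries for each line and all 18 for the difference between lines, with Benjamini-Hochberg adjustment over all genes and a threshold of 0.05. Alternatives were DESeq2 1.42.0 and its size factors, library size alone, no filter, counts that ignore strand, the replicate number as a block, and leaving out each library or both doubted BEAS-2B libraries. The tests were also run on simulated counts. The simulated spread was below that estimated in each fit, most of all in BEAS-2B, and no effect of library number was included. This run therefore does not show how the tests perform at the spread of these data. In A549 libraries of the same number in different groups deviated together (correlations from 0.220 to 0.798 over 9 pairs). Those of different numbers ran from -0.677 to 0.340 over 18 pairs. The labels name no pairing, so the block by number rests on these correlations.

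The 42 genes and the further lists were chosen with earlier results of these data known. Genes called in at least 1 comparison, or with a mean of at least 50 CPM in a group, are described with values, the rest by counts and ranges, and up to 4 genes of each further list with the smallest adjusted p are named. Depth sets the floor: 0 counts allow up to 3, and this covers counting error only.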

Additional observations from a re-analysis of the deposited data

How the results depend on the processing

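No call of a member against clean air changed direction under any alternative. In A549 complete smoke 6 of 14 calls held under every alternative, in A549 filtered smoke 13 of 16, in BEAS-2B complete smoke 5 of 22 and in BEAS-2B filtered smoke 8 of 22. Leaving out single libraries gave 8 to 15 members called in A549 complete smoke, 14 to 19 in A549 filtered smoke, 6 to 25 in BEAS-2B complete smoke and 9 to 24 in BEAS-2B filtered smoke. Complete against filtered smoke stayed at 0 in both lines, and the difference between lines at 0 to 1 after complete and 0 after filtered smoke. With the replicate block 22 members were called in A549 complete smoke (54.6% of all genes) where 14 were without it. In BEAS-2B 8 of 9 correlations of same-numbered libraries were 0.16 to 0.67 and 1 was -0.13. Their median was 0.58, against 0.36 in A549. Not every BEAS-2B pair was over 0.1, so the block is given here only. BEAS-2B genes above were described without it, while some A549 genes were also given with it. The block called 28 BEAS-2B members after each smoke, beside 63.1% and 66.9% of all genes, where 22 were called without it. For the difference between lines after complete smoke, 0 members passed in the fit reported, 2 with library size alone (8.87% of all genes), 3 without the filter (2.12%), 2 by the DESeq2 Wald test (5.69%), 10 with the replicate block (20.0%) and 12 without both doubted BEAS-2B libraries (21.5%). After filtered smoke these were 1 without the filter (1.2%), 9 with the replicate block (15.5%) and 3 without both libraries (5.16%). The cause was not tested. Depth left 8 members in A549 and 2 in BEAS-2B with too few counts for a test.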
